A study of Homo sapiens with 4 samples.

Results

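The laminin chain genes LAMA1, LAMA2, LAMA3, LAMA4, LAMA5, LAMB1, LAMB2, LAMB3 and LAMC1 were examined for H3K27 acetylation (H3K27ac) in 2 breast cancer cell lines. These 9 genes, of 19970 protein-coding genes on chromosomes 1 to 22 and X of hg38 (GENCODE release 44), were listed by name as laminin chains, with earlier results of these data known but with no measured value in the rule. A gene was called marked where a peak lay at least partly within 1 kb of a start site of one of its basic transcripts, the well-supported set of GENCODE. Its window was the gene body with 50 kb on either side. H3K27ac ChIP-seq peak lists came from MDA-MB-231 and Hs578T, established triple-negative lines, with 2 lists per line and replicates named as biological. In the labels, all 4 samples were starved of serum, received the cytokine TWEAK at 10 ng/ml for 48 h and were then kept without it for 72 h. A longer wash-off is stated in the study's text, and the conflict was not resolved here. Every list is therefore from cells washed after TWEAK, libraries of untreated cells were not analysed here, and neither TWEAK nor its washout could be assessed.

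Laminins are large glycoproteins of the basement membrane, each built of an alpha, a beta and a gamma chain that join through a coiled coil. The alpha chain carries the main sites for integrins and dystroglycan, and the beta and gamma chains take part in assembly. Laminin-332, which holds the alpha chain of LAMA3 and the beta chain of LAMB3, anchors epithelial cells through hemidesmosomes, and the chains of LAMA5, LAMB1 and LAMC1 are found in the widespread laminins of most basement membranes. H3K27ac is a histone mark of active promoters and enhancers, and a peak gives the place of the mark, not the amount of a transcript or protein.

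The lists held 209 peaks in MDA-MB-231 replicate 1, 43353 in MDA-MB-231 replicate 2, 46330 in Hs578T replicate 1 and 44920 in Hs578T replicate 2. They covered 0.113, 81.8, 90.7 and 83.9 Mb. The list of MDA-MB-231 replicate 1 stood apart and had no peak in the window of any laminin gene, where 1.61% of all protein-coding genes had one. The laminin values of MDA-MB-231 thus rest on replicate 2 alone, and a mean over both lists describes neither. The other 3 lists are given below in the order MDA-MB-231 replicate 2, Hs578T replicate 1 and Hs578T replicate 2. Among cell type markers, the mesenchymal genes VIM, ZEB1 and FN1 were marked and CDH2 was not, in each of these 3 lists. The luminal or epithelial genes ESR1, GATA3, FOXA1, CDH1 and ESRP1 were unmarked in each. These calls were the same in both lines, so they cannot tell one labelled line from the other. Read numbers were not used here, so the depth is unknown. With 2 lists a line the smallest two-sided p of an exact permutation test is 0.333, and no test between lines was made.

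Start sites on which the results turn are shown by the 250 bases before each, read on the strand of the gene from hg38, with CG dinucleotides in capitals. LAMA3 has a start at the 5′ end of the gene and another far inside it, and both are shown. LAMA2 and LAMB3, the other laminin-332 chain, are each shown by the canonical start, and LAMA1 is the member with no marked start.
LAMA3 upstream start, chr18:23689203-23689452 +: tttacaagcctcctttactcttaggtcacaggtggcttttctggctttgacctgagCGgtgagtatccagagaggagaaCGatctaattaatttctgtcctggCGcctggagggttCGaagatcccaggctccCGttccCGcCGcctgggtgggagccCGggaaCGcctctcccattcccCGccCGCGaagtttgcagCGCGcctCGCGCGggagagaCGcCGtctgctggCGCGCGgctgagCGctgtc
LAMA3 internal start, chr18:23872770-23873019 +: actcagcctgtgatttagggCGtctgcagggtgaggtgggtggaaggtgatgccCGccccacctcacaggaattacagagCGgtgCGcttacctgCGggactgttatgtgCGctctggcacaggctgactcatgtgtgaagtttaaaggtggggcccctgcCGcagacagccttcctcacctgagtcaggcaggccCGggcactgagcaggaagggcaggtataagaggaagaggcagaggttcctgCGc
LAMB3 start, chr1:209652426-209652675 -: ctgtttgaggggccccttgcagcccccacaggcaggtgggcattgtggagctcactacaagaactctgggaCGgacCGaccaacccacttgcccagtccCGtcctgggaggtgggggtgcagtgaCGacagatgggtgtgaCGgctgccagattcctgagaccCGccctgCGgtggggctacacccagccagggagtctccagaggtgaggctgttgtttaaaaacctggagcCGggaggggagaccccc
LAMA2 canonical start, chr6:128882888-128883137 +: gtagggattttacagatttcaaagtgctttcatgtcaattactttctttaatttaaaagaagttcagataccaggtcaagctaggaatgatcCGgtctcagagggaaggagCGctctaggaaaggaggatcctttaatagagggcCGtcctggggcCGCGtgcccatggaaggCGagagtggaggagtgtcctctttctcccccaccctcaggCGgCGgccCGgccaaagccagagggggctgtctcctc
LAMA1 start, chr18:7117798-7118047 -: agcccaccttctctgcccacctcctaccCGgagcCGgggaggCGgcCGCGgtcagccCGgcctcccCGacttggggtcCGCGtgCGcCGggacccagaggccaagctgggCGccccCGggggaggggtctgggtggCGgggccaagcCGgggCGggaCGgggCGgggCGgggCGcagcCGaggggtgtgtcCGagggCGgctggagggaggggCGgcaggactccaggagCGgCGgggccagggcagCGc
The counts of CG in these stretches were 23 and 9 for the upstream and internal starts of LAMA3, 8 for LAMB3, 9 for the canonical start of LAMA2, and 27 for LAMA1. The median over 34961 RefSeq promoters (GRCh38.p14), counted over the same length, was 11. The AP-1 motif was searched as TGACTCA on both strands (TGAGTCA is its reverse complement). It occurred 2 times before the internal start of LAMA3 and not before the other 4 starts shown. A further basic start of LAMB3, 1091 bp downstream of the canonical one and not shown, had 1 match before it. The motif was present in 4.17% of the RefSeq promoters.

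A start site was marked in 8, 8 and 7 of the 9 laminin genes. The background in the same lists was 60.0%, 60.2% and 58.5% of all protein-coding genes, and 0.0701% in MDA-MB-231 replicate 1, where no laminin gene was marked. In Hs578T the mean was 7.5 ± 0.707 genes (SD, n = 2). Where the midpoint of the peak had to lie within 1 kb of a start, 5, 6 and 4 genes were marked. The unmarked member in each of the 3 lists was LAMA1, joined by LAMA4 in Hs578T replicate 2. All 9 genes had a peak somewhere in their window in these lists, as did 86.9%, 87.1% and 87.0% of all protein-coding genes, so that count does not set the members apart. Marked laminin genes had start-site peaks with median widths of 5195, 5124 and 4974 bp, against 1826, 1927 and 1838 bp over all marked genes. The widths ranged from 326 bp at LAMA4 to 21247 bp at LAMA5, both in Hs578T replicate 1.

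**Figure D1:**
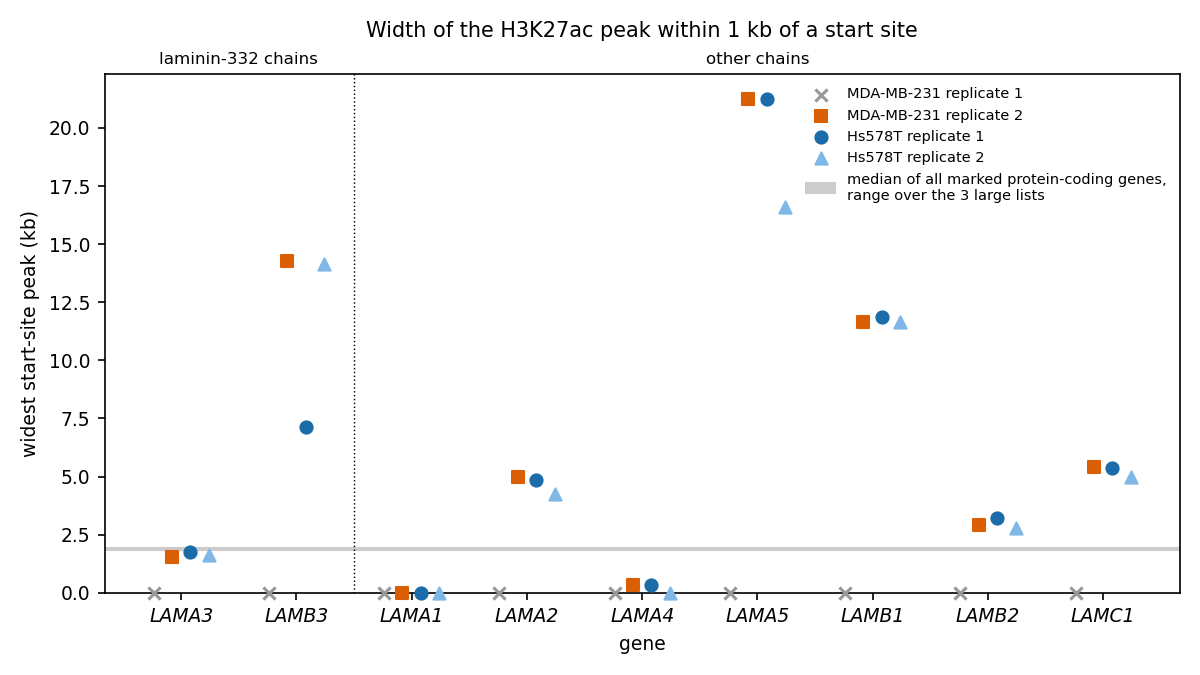
Width in kb (linear axis) of the widest H3K27ac peak within 1 kb of a start site of each laminin gene, with 1 point per list, 0 where there was no such peak, and a grey band for the range of the medians over all marked protein-coding genes in the 3 lists with many peaks. In these lists LAMA3 and LAMA4 lie below the band, LAMA1 is at 0 and the other 6 genes lie above the band, whereas MDA-MB-231 replicate 1 is at 0 throughout.

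The alpha chain genes differed most among themselves. LAMA1 (chr18:6941742-7117797, minus strand), which encodes an alpha chain known from early embryonic basement membranes, had 2 peaks in its window in each of the 3 lists and no mark at a start. The peaks covered 1702, 1754 and 1744 bp, or 0.617%, 0.635% and 0.632% of the window. The stronger of them was intronic, near the 3′ end of the gene, with fold enrichments over background of 3.90, 5.16 and 4.49. Of all peaks in each list, 28.5%, 50.4% and 45.1% had a lower fold enrichment. The CG-rich stretch printed for LAMA1 thus lay outside every peak.

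LAMA2 (chr6:128883138-129516566, plus strand), the alpha chain of muscle basement membranes, was marked only at its internal start. That start lies 607545 bp downstream of the canonical one, and the canonical start was 186372, 166793 and 178010 bp from the nearest peak. The peak at the internal start was 4969, 4861 and 4244 bp wide, with fold enrichments of 20.5, 20.4 and 19.1. It exceeded the width of 91.3%, 89.3% and 88.2% of the start-site peaks of marked genes. The first 606545 bp of the gene, up to 1 kb before the internal start, held 622, 1365 and 435 covered bp, and the last 26884 bp held 7575, 6920 and 5891. The bases in the first stretch were the edge of the peak at the internal start, except for a small separate peak in Hs578T replicate 1. Among 4677 genes with basic start sites over 2 kb from the canonical one, 7.74%, 7.78% and 8.04% had this arrangement of an unmarked canonical start and a marked distant one.

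LAMA3 (chr18:23689453-23956222, plus strand) encodes the alpha chain of laminin-332 and has a long and a short form. Its mark lay the other way round from that of LAMA2. The upstream start, of the long form, had a peak of 1561, 1751 and 1628 bp with fold enrichments of 5.63, 5.68 and 4.09. This was a narrow peak, wider than only 39.3%, 43.7% and 42.5% of the start-site peaks of marked genes. The internal start, 183567 bp downstream, had no peak within 1 kb in any list. In MDA-MB-231 replicate 2 a weak peak of 605 bp with a fold enrichment of 2.86 ended 1150 bp before that start, just outside the limit, whereas the nearest peaks in Hs578T were 10179 and 10339 bp away. A marked canonical start with no marked start beyond 2 kb was found in 36.1%, 35.3% and 34.8% of the 4677 genes.

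The window of LAMA3 was rich in separate, mostly intronic peaks. It held 14, 13 and 12 of them, covering 16195, 17331 and 14012 bp. Within the gene, 10, 9 and 9 lay upstream of the point 1 kb before the internal start, and the 84203 bp from there to the 3′ end held 0 in every list. The strongest was an intronic peak about 30 kb downstream of the upstream start, 2903, 3383 and 2878 bp wide, with fold enrichments of 7.63, 8.34 and 8.37. Its rank in the list was above 64.6%, 72.0% and 77.0% of peaks, higher than that of the start-site peak in each list.

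**Figure D2:**
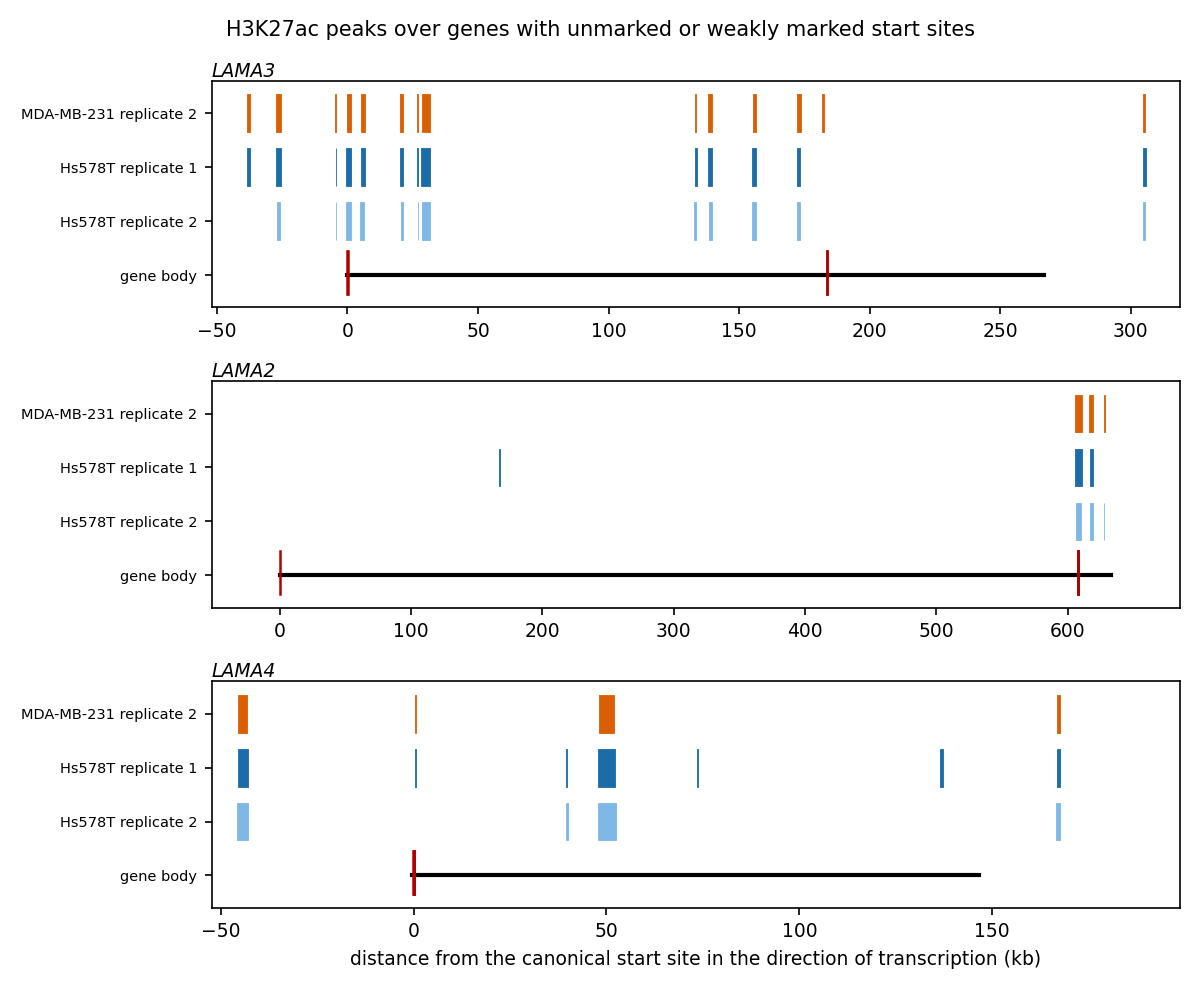
Peaks of the 3 lists along LAMA3, LAMA2 and LAMA4, with distance from the canonical start in kb on the horizontal axis, the gene body as a black line and basic start sites as red ticks. In LAMA3 the peaks inside the gene end before the internal start, in LAMA2 they gather at the internal start near the 3′ end, and in LAMA4 the long peaks lie inside and upstream of the gene.

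LAMA4 (chr6:112107931-112254939, minus strand), an alpha chain of vessel walls and other mesenchymal tissue, had a start-site peak of 338 bp in MDA-MB-231 replicate 2, of 326 bp in Hs578T replicate 1 and none in Hs578T replicate 2. These were among the narrowest of all, wider than 1.88% and 1.30% of the start-site peaks of marked genes. In Hs578T replicate 2 the nearest peak was 39464 bp from the canonical start, so the call of this start differed between replicates of one line. Stronger peaks lay elsewhere in the window. An upstream peak about 44 kb before the start was 2500, 2500 and 2766 bp wide, with fold enrichments of 19.8, 20.4 and 17.6, above 95.2%, 96.3% and 96.6% of the peaks of each list. An intronic peak of 4079, 4492 and 4534 bp reached 15.7, 19.7 and 16.4. Both were present in all 3 lists, unlike the start-site peak.

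LAMA5 (chr20:62307955-62367312, minus strand), the alpha chain of widespread adult basement membranes, had the widest start-site peak of the 9 genes, at 21237, 21247 and 16612 bp. These were wider than 99.8%, 99.7% and 99.6% of the start-site peaks of marked genes. The peak began about 3.7 kb before the start in MDA-MB-231 replicate 2 and ran 17.5 kb into the gene. In Hs578T replicate 2 a gap of 1133 bp separated the peak from a further one of 4828 bp, so that the difference in width between the lists was a difference in how the domain was divided: both peaks spanned 22573 bp together. Fold enrichments were 20.7, 14.4 and 11.2. The window of LAMA5 was also the most covered, with 41375, 44344 and 35973 bp, more than in 99.0%, 98.7% and 98.1% of all protein-coding genes. Of these bases, 12506, 11599 and 9651 lay in peaks at start sites of neighbouring genes.

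The beta chain genes were marked in every one of the 3 lists, in broad domains at LAMB1 and LAMB3 and in a narrower peak at LAMB2. LAMB1 (chr7:107923799-108003213, minus strand), the common beta chain, had a peak of 11636, 11851 and 11644 bp, which began about 1.7 kb before the start in MDA-MB-231 replicate 2 and ran 9.9 kb into the gene. Its width in Hs578T, 11748 ± 146 bp (SD, n = 2), was the most even among the members with a broad peak. Fold enrichments were 14.1, 14.8 and 12.9. LAMB2 (chr3:49121114-49133118, minus strand), the beta chain of neuromuscular junctions and kidney glomeruli, had a peak of 2912, 3204 and 2782 bp with fold enrichments of 13.3, 10.6 and 8.60. Its gene body is the shortest of the 9, at 12005 bp, and 5, 5 and 4 of the 6, 6 and 5 peaks in its window lay at start sites of neighbouring genes. Most of what was covered around LAMB2 was therefore not at LAMB2 itself.

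LAMB3 (chr1:209614870-209652425, minus strand), the beta chain of laminin-332, had a start-site peak of 14296, 7144 and 14128 bp. It was wider than 99.4%, 94.9% and 99.4% of the start-site peaks of marked genes, with fold enrichments of 15.7, 16.9 and 11.7. In MDA-MB-231 replicate 2 it reached 8.52 kb before the start and 5.77 kb into the gene. The shorter width in Hs578T replicate 1 came with a second peak of 5337 bp, 854 bp further upstream, and both together spanned 13335 bp. The domain was therefore of similar extent in the 3 lists and was called as 1 peak in 2 of them. The 250 bases printed for LAMB3 lie inside it.

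LAMC1 (chr1:183023420-183145592, plus strand), the gamma chain shared by most laminins, had a start-site peak of 5421, 5387 and 4974 bp with fold enrichments of 21.2, 19.8 and 16.0. These fold enrichments were close to those of the internal start of LAMA2. The strongest peak of its window, however, lay outside the gene, about 13.7 kb past its 3′ end in MDA-MB-231 replicate 2. It was 6962, 7442 and 7020 bp wide, with fold enrichments of 25.2, 23.7 and 20.5, above 98.2%, 97.9% and 98.1% of all peaks. A further peak about 33.8 kb beyond the gene reached 23.6, 17.8 and 15.3. A neighbouring gene has its start site in this window too, so these peaks cannot be assigned to LAMC1 by position.

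**Figure D3:**
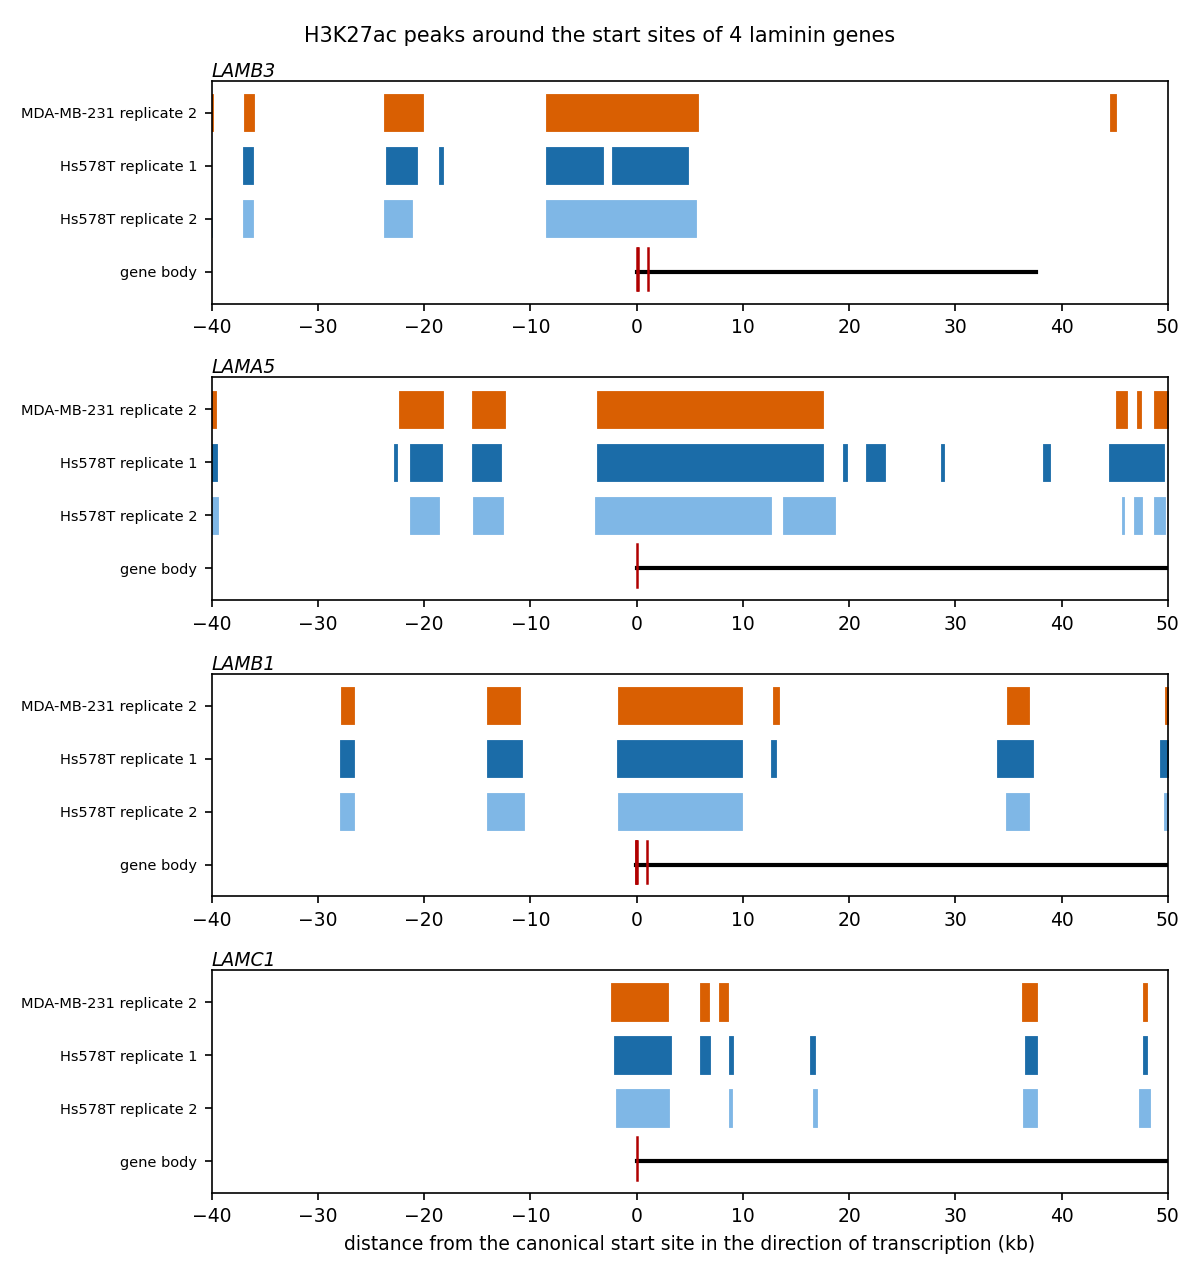
Peaks of the 3 lists around the starts of LAMB3, LAMA5, LAMB1 and LAMC1, with distance from the canonical start in kb on the horizontal axis, the gene body as a black line and basic start sites as red ticks. The domains at LAMB3 and LAMA5 are continuous in some lists and divided by a short gap in others, and the domain of LAMB1 has nearly the same ends in all 3.

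A start-site peak of at least 10 kb, a limit chosen after the widths were seen, was present at LAMA5, LAMB1 and LAMB3 in MDA-MB-231 replicate 2 and Hs578T replicate 2. In Hs578T replicate 1 it was present at LAMA5 and LAMB1, where the LAMB3 domain was divided. Such a peak occurred at 1.05%, 1.39% and 1.03% of all protein-coding genes in MDA-MB-231 replicate 2, Hs578T replicate 1 and Hs578T replicate 2.

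Over all windows the lists held 62, 67 and 56 laminin peaks, which covered 156177, 161058 and 141157 bp. In Hs578T the mean was 151108 ± 14072 bp (SD, n = 2), and the value of MDA-MB-231 replicate 2 lay between both Hs578T lists. The median gene had 9.33%, 10.3% and 8.26% of its window covered, against 3.78%, 4.17% and 3.82% over all protein-coding genes. That median gene was LAMB2 in each list, with 10449, 11563 and 9253 bp covered. Of these bases, 7537, 8359 and 6471 lay in peaks at start sites of neighbouring genes. The background was counted by the same rule. By covered percentage LAMA5 came first, with 26.0%, 27.8% and 22.6%. LAMB1 followed with 13.9%, 14.7% and 13.7% and LAMB3 with 14.5%, 12.3% and 13.3%, and the ranges of this pair overlapped. LAMC1 had 11.5%, 11.1% and 10.0% and LAMB2 had 9.33%, 10.3% and 8.26%, again with overlapping ranges. LAMA3, at 4.42%, 4.73% and 3.82%, overlapped LAMA4, at 3.13%, 3.96% and 3.54%. LAMA2 had 1.12%, 1.13% and 0.863%, and LAMA1 was the least covered. LAMA2 and LAMA3 have the longest gene bodies, 633429 and 266770 bp, and a percentage of the window is lowered by length alone.

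**Figure D4:**
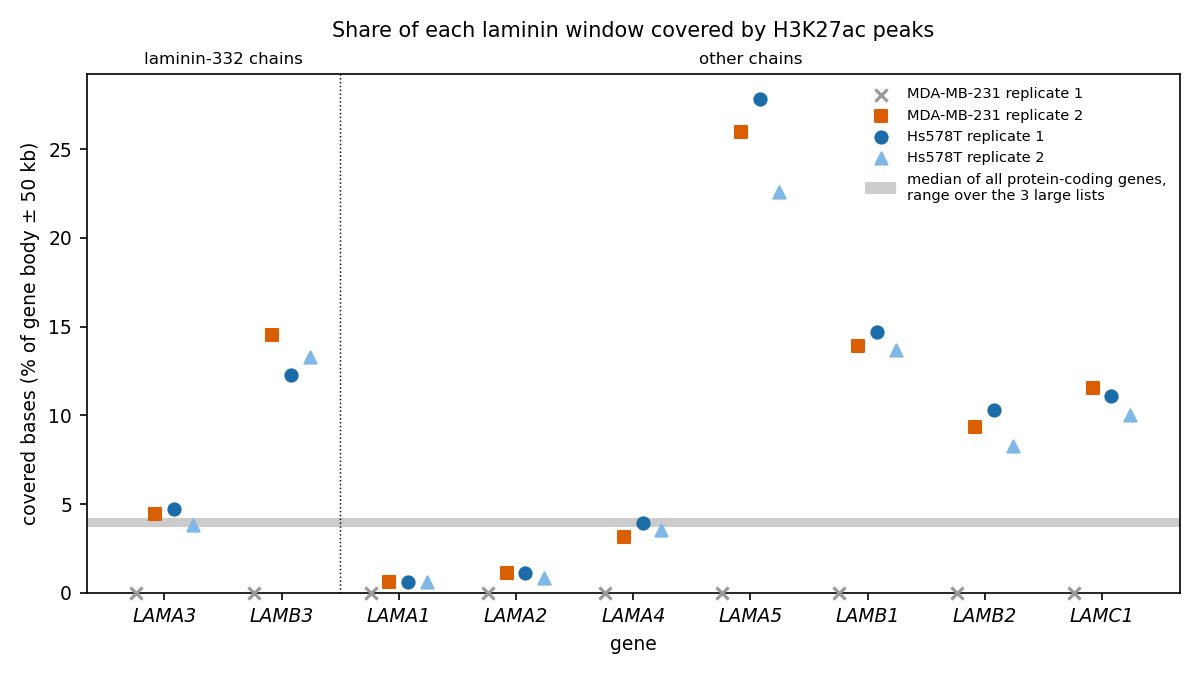
Percentage of each window, the gene body with 50 kb on either side, covered by H3K27ac peaks, with 1 point per list and the range of medians over all protein-coding genes. LAMA5 lies highest at 22.6% to 27.8%, LAMA1 and LAMA2 lie near 1% or below, and MDA-MB-231 replicate 1 is at 0 throughout.

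The laminin-332 chains LAMA3 and LAMB3 were compared with the other 7 chains, and the order of the groups depended on the list and on the window. Their median start-site width was 7929, 4448 and 7878 bp, against 5195, 5124 and 4974 bp for the marked others. For LAMA3 this is the width at the upstream start, of the long form only, since its internal start was unmarked. No start-site width of the short form therefore entered the comparison, and which form is part of laminin-332 cannot be told from peaks. The order of the groups was reversed in Hs578T replicate 1, where the LAMB3 domain was divided. With peaks within 1 kb of each other merged, the difference in that list was 2419 bp in favour of the laminin-332 chains, and all 3 lists had the same order. With canonical starts only, the others had the larger median in both Hs578T lists. The median covered percentage was 9.47%, 8.50% and 8.56% against 9.33%, 10.3% and 8.26%, which likewise changed order between replicates of Hs578T. This order depended on the window: the laminin-332 chains had the higher median in all 3 lists with a flank of 10 kb (by 6.31, 5.05 and 7.03 percentage points), over gene bodies only (1.67, 1.06 and 2.69) and without bases at other genes' start sites (5.78, 3.59 and 4.81). With the strongest 50% of peaks, taken by the score in the lists and not by fold enrichment, the differences were -2.41, -3.59 and -2.42 percentage points. With a flank of 100 kb they were -0.02, -2.21 and -0.25. Widths of the other chains ran from 338 to 21237 bp in MDA-MB-231 replicate 2 and from 326 to 21247 bp in Hs578T replicate 1, and enclosed both laminin-332 chains. In Hs578T replicate 2, where LAMA4 had no start-site peak, the narrowest of the others was 2782 bp at LAMB2, and LAMA3, at 1628 bp, lay below it. LAMA3 and LAMB3 differed more from each other than the groups did. LAMB3 had the wider and stronger start-site peak in each of the 3 lists. LAMA3 had more peaks away from the start, in a window of 366770 bp against 137556 bp at LAMB3.

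Of the laminin peaks, 8, 8 and 7 were at a start site of the gene itself, 13, 13 and 12 at a start site of a neighbouring gene, and 25, 29 and 26 in introns. The peaks at the genes' own starts covered 62370, 55771 and 56012 bp and the intronic ones 36027, 44723 and 37620 bp. Peaks at neighbouring starts accounted for 30207, 28349 and 24010 bp, and these cannot be separated from the laminin genes by position. The AP-1 motif occurred in 41.9%, 43.3% and 46.4% of laminin peaks and in 45.5%, 45.7% and 44.8% of all peaks of the lists, which are close. Its density was 0.326, 0.329 and 0.339 per kb of laminin peak, against 0.375, 0.365 and 0.371 per kb over all peaks. Within the laminin genes it was 0.415, 0.409 and 0.371 per kb at the laminin-332 chains and 0.300, 0.307 and 0.330 per kb at the others. The share of peaks with the motif did not follow this order, at 42.1%, 42.1% and 37.5% for the laminin-332 chains and 41.9%, 43.8% and 50% for the others. No match was found in the peaks around LAMB2.

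Examples of the motif are shown for the laminin-332 chains, because the intronic peak was the strongest of the LAMA3 window and the domain of LAMB3 was among the widest. Each line gives 41 bases of hg38 on the strand of the gene, with the motif in capitals. Each of these stretches lay in a peak of all 3 lists.
LAMA3 intron, site 1, chr18:23718370-23718410 +: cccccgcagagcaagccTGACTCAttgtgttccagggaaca
LAMA3 intron, site 2, chr18:23719730-23719770 +: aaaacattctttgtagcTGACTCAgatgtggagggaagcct
LAMA3 intron, site 3, chr18:23719843-23719883 +: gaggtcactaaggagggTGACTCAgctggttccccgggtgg
LAMA3 intron, site 4, chr18:23720095-23720135 +: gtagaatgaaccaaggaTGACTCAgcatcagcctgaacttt
LAMB3 intron, chr1:209651418-209651458 -: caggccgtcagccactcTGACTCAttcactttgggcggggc
LAMB3 upstream, near site, chr1:209653127-209653167 -: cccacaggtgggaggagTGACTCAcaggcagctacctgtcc
LAMB3 upstream, far site, chr1:209655910-209655950 -: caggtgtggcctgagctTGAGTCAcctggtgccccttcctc
The LAMA3 intron thus held 4 matches in its strongest peak, all on the strand of the gene as TGACTCA. Those at LAMB3 lay on both sides of the canonical start. A match is a sequence and not evidence that a factor is bound there.

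The 3 lists were alike over the laminin windows. After merging, the windows held 72 regions, of which 49 (68.1%) were present in all 3 lists, 9 in 2 of them and 14 in 1. Over the whole genome 74.8% of 50576 merged regions were in all 3. Both regions of LAMA1, 7 of 8 at LAMB1 and 12 of 14 at LAMA3 were in all 3 lists. LAMA5 had 6 of 13, and its other 7 regions were each in a single list. The Jaccard index (shared covered bases as a fraction of all bases covered by the pair) was 0.795 for the Hs578T pair. For MDA-MB-231 replicate 2 it was 0.802 with Hs578T replicate 1 and 0.811 with Hs578T replicate 2, so lists of the same line were no more alike here than lists of different lines.

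Gene by gene, MDA-MB-231 replicate 2 had more covered bases than both Hs578T lists at LAMB3 (19987 bp against 16897 and 18301) and LAMC1 (25598 against 24683 and 22283). It had fewer at LAMA1 and LAMA4, where it covered 7730 bp against 9785 and 8737. The other 5 genes lay between the Hs578T lists. Among 17591 genes with a covered base, 21.4% lay above both Hs578T lists and 45.6% below both, so that 2 of 9 laminin genes above was close to the first share and 2 of 9 below was under the second.

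Of 16 genes of proteins that bind laminins or join them to the cell, 13, 13 and 12 had a marked start site, and none in MDA-MB-231 replicate 1. The share over all protein-coding genes, 60.0%, 60.2% and 58.5%, is the background for these counts. Among basement membrane partners 4 of 6 were marked in each of the 3 lists, near that share. HSPG2, which encodes the proteoglycan perlecan, had the widest peak of them, at 7811, 8318 and 8405 bp. COL4A1 and COL4A2, which encode type IV collagen chains and share a start region, had the narrowest, at 2942, 2688 and 2481 bp. The nidogen genes NID1 and NID2, whose products link laminin to type IV collagen, were unmarked in all 3 lists.

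Laminin receptor genes were marked in 7, 7 and 6 of 7. ITGA3, the alpha subunit of an integrin that binds laminin-332, had a peak of 22813, 45704 and 25638 bp, wider than that of any laminin gene in the same list. BCAM, a receptor of the laminin alpha-5 chain, had a peak of 714 and 1175 bp and none in Hs578T replicate 2. Hemidesmosome genes were marked in 2 of 3, again near the share over all genes. PLEC, which encodes the linker plectin, had a peak of 28141, 26420 and 21386 bp, DST, which encodes another linker, had one of 5620, 4400 and 4349 bp, and COL17A1, a transmembrane collagen of hemidesmosomes, was unmarked in all 3 lists.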

How the data were processed

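Peak lists of 4 H3K27ac ChIP-seq libraries, 2 per line, were analysed, with groups and replicate numbers from the sample titles. The authors trimmed reads with Trimmomatic, aligned them to hg38 (Bowtie2), subtracted input and called the peaks of every library on its own (MACS2), and removed blacklisted regions. Versions and settings were not given in the sources used here. Each deposited list has 9 columns, as MACS2 writes in broad mode. They hold the start and end (here counted from 1), a score, the fold enrichment (a ratio over local background), and −log10 p-values and q-values as deposited. Peaks called per library depend on depth, which is unknown, and on the input, so fold enrichment was ranked only within a list.

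Windows, widths and covered bases were computed with Python 3.11.15 and NumPy 2.4.6, and figures with Matplotlib 3.10.9. An overlap of at least 1 bp counted. Positions came from GENCODE release 44. The interval code was checked on 20 simulated lists with 4000 queries, all of which matched. No test was made. The same values over all protein-coding genes stand beside those of the members. The members and gene lists were chosen with earlier results of these data known. All 9 members were named. Of the 16 partner genes, those unmarked in a list with many peaks and the widest and narrowest start-site peak of each of 3 groups were named. Alternatives were other flanks, a start-site window of 2.5 kb, the canonical start only, peak midpoints, peaks within 1 kb merged and gene bodies. Further ones were the same number of top peaks per list, omission of bases at other genes' starts, the strongest 50% of peaks, and leaving out each replicate. In these alternatives top and strongest peaks were taken by the deposited score, and elsewhere strength was fold enrichment.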

Additional observations from a re-analysis of the deposited data

How the results depend on the processing

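Of 66 recomputed values, 19 moved beyond the limit set for them: for a number of marked members, 1.5 times, and for the others, 1 SD of the same line (that of Hs578T where MDA-MB-231 gave only 1 list). For covered bases in MDA-MB-231 this SD, 110434 bp, exceeded the mean of 78088.5 bp, so that values from 0 to 156177 bp passed and say nothing of stability. In Hs578T, the summed covered bases (151108 bp) became 109527 bp with a flank of 10 kb, 191190 bp with 100 kb, 83827 bp over gene bodies only, 132291 bp without bases at start sites of other genes and 119929 bp with the strongest 50% of peaks, and ranged from 141157 to 161058 bp with a replicate left out. The median covered percentage of the laminin-332 chains minus that of the others was -0.76 percentage points in Hs578T and 0.14 in MDA-MB-231 replicate 2. In these lines it became 6.04 and 6.31 with a flank of 10 kb, 1.87 and 1.67 over gene bodies, 4.20 and 5.78 without other genes' start sites, and -3.01 and -2.41 with the strongest 50% of peaks. It ranged from -1.82 to 0.301 with an Hs578T replicate left out, so the order of these groups depended on the window and on the list. The difference in median start-site width, 1114 bp in Hs578T, became 4107 bp with the strongest 50% of peaks, 2662 bp with peaks within 1 kb merged, -685 bp with canonical starts only and -1101 bp under the midpoint rule, and ranged from -676.5 to 2904 bp with a replicate left out. In MDA-MB-231 replicate 2 it was 2734 bp, and became -2380 bp where the peak midpoint had to lie within 1 kb of the start and 8875 bp with the strongest 50% of peaks. The midpoint rule also lowered the mean of marked members in Hs578T from 7.5 to 5 and in MDA-MB-231 from 4 to 2.5. Canonical starts only and the strongest 50% of peaks each gave 6.5 in Hs578T. The mean in MDA-MB-231 ranged from 0 to 8 with a replicate left out, since the list of replicate 1 held no laminin peak. Beyond the construction of each alternative, the cause was not tested.

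No paired analysis was possible because the results come from no test and the replicate numbers are shared by different cell lines. Peaks give presence and extent of the mark and not its amount, signal under the authors' threshold is not in the lists, and the depth behind that threshold is unknown. Only 1 list with many peaks represents MDA-MB-231.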
